A study of Homo sapiens with 16 samples.

Results

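The expression of 10 genes that mark the maturation of monocytes and macrophages was examined in RNA-seq of acute myeloid leukaemia cells. The genes were LAPTM5, CD14, CD68, ITGAM, ITGAX, FCGR1A, VCAN, MNDA, S100A8 and S100A9, and they were found by their symbols among the 60357 genes of the deposited count tables. The cells were Kasumi-1 and SKNO-1, human lines that carry the translocation t(8;21) and express the fusion RUNX1/ETO, with no further genetic change in the labels. All cultures received 2 µg/ml of lipid nanoparticles (LNPs) for 24 h, were washed and were harvested on day 3, and no untreated cells were included here. In each line 3 libraries were labelled LNP/siRE-mod, whose chemically modified siRNA is directed against the fusion transcript, and 3 were labelled LNP/siMM-mod, whose siRNA is a mismatch control. Kasumi-1 was kept in RPMI with 10% serum and SKNO-1 in RPMI with 15% serum and GM-CSF, a cytokine that itself acts on monocytes, so the line and its medium cannot be told apart. The labels do not say whether replicates were separate cultures, and p-values then measure only the spread between these libraries. A further 4 libraries of Kasumi-1 cells from treated RG mice listed all 10 genes at 0 reads, with 0.02% to 0.0335% of their reads on genes, and give no level for them.

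Monocytes arise from myeloid progenitors in the bone marrow and become macrophages or dendritic cells in tissues. Along this path cells lose progenitor markers such as CD34 and gain receptors for bacterial products and antibodies, adhesion integrins, lysosomal proteins and calcium-binding S100 proteins. RUNX1/ETO keeps the DNA-binding domain of RUNX1, a transcription factor of blood development, and blocks myeloid differentiation, so marker genes of this kind are commonly read after its depletion.

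Before the markers, CD34 and RUNX1T1 were read in every library, because RUNX1T1 (ETO) supplies most of the fusion transcript, and its reads count the fusion together with any normal RUNX1T1 transcript. Levels are given as normalized CPM, reads scaled to library size and composition. CD34 divided the 12 libraries into 6 with 117 to 420 CPM, called CD34-high here, and 6 with 0.107 to 0.626 CPM, called CD34-low. RUNX1T1 divided each of these again into 3 and 3. Set A, CD34-high with RUNX1T1 at 296 to 329 CPM, comprised SKNO-1 siMM-mod replicates 1 and 2 and Kasumi-1 siMM-mod replicate 1. Set B, CD34-high with RUNX1T1 at 92.7 to 127 CPM, comprised SKNO-1 siMM-mod replicate 3, SKNO-1 siRE-mod replicate 1 and Kasumi-1 siMM-mod replicate 2. Set C, CD34-low with RUNX1T1 at 159 to 164 CPM, comprised SKNO-1 siRE-mod replicate 2, Kasumi-1 siMM-mod replicate 3 and Kasumi-1 siRE-mod replicate 2. Set D, CD34-low with RUNX1T1 at 37.2 to 44.3 CPM, comprised Kasumi-1 siRE-mod replicate 1, SKNO-1 siRE-mod replicate 3 and Kasumi-1 siRE-mod replicate 3. The sets thus cross the labels of both the siRNA and the cell line. Over all genes, log2 CPM of Kasumi-1 siMM-mod replicate 1 correlated at 0.9929 with SKNO-1 siMM-mod replicate 1, of the same set, and at 0.8333 with Kasumi-1 siMM-mod replicate 3, of the same line and label (Pearson's r across genes, which are not independent). Whether files or titles were exchanged was not tested, and every fold change by siRNA or cell line given here is one between labels. The sets were formed from measured values and are not groups of the study, so each set is described by its 3 values, in the order just given, with no mean and no test. Where a count of markers whose values do not overlap between sets is given, the share of all 15863 genes with at least 600 reads that do the same stands beside it.

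RefSeq promoter windows, 250 bases before to 50 bases after the start site, were at hand for 9 of the 10 markers. Those of LAPTM5, ITGAM and S100A9, which were higher in set B than in set A and in set D than in set C, and of VCAN, which was highest in set C, are shown upstream of the start site. Capitals mark the letters searched on both strands, which were TGTGGT or TGCGGT, the core bound by RUNX factors, AGGAAGT or GAGGAAG, a pair of overlapping forms of the PU.1 (SPI1) element, and TTGCNNAA, a form of the C/EBP element.
LAPTM5 (GRCh38.p14, chr1:30757775-30758024, minus strand): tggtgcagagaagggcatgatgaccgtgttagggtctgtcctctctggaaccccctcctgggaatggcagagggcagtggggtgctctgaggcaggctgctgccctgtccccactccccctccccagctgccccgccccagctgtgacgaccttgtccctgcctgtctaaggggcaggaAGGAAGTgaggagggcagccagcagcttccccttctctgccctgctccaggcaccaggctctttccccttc
ITGAM (GRCh38.p14, chr16:31259725-31259974, plus strand): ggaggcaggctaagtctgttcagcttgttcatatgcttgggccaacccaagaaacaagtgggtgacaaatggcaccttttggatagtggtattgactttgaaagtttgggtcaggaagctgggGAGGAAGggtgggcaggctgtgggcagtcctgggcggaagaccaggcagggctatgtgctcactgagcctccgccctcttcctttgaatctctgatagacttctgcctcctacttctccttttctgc
VCAN (GRCh38.p14, chr5:83471494-83471743, plus strand): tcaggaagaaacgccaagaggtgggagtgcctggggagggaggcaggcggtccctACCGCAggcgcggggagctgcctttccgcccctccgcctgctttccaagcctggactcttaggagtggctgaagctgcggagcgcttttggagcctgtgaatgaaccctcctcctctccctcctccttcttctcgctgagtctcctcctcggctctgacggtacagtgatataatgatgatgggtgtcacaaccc
S100A9 (GRCh38.p14, chr1:153357604-153357853, plus strand): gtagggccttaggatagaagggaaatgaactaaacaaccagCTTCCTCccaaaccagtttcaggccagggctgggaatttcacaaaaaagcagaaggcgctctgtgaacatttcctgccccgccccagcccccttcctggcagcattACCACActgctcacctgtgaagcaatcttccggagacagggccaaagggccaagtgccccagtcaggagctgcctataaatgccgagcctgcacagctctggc
In LAPTM5 the AGGAAGT began at position −71 from the start site. ITGAM held GAGGAAG at position −127 and TGTGGT at position 25 after the start site, which lies outside the stretch shown. VCAN held ACCGCA, the RUNX core read on the other strand, at position −195. S100A9 held ACCACA, also a RUNX core on the other strand, at position −103 and CTTCCTC, a PU.1 form on the other strand, at position −209. The RUNX letters occurred in 3 of the 9 marker windows, all 3 of them among those shown, and in 19.6% of the 35116 promoter windows of the same length. MNDA and S100A8 were also higher in set B than in set A and in set D than in set C. Their windows are not shown and held no RUNX letters. MNDA held a C/EBP form at position −200 and S100A8 a PU.1 form at position −190. The PU.1 letters occurred in 7 of the 9 and in 18.6% of all windows, and the C/EBP letters in 2 of the 9 and in 10.5%. A match of letters does not show that a factor binds there, and no binding data were used here.

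The markers differed widely in level. Per kilobase of exon, LAPTM5 had a median over the 12 libraries of 51.6 CPM per kb, followed by FCGR1A with 4.26, MNDA with 3.41 and S100A9 with 0.995 CPM per kb. ITGAM had a median of 0.318, ITGAX of 0.289, S100A8 of 0.224 and VCAN of 0.0155 CPM per kb. The ranges over libraries of LAPTM5, from 10.4 to 139 CPM per kb, and FCGR1A, from 2.89 to 7.93, did not meet, whereas those of FCGR1A and MNDA, from 0.86 to 8.01, overlapped. ITGAM, ITGAX and S100A8 also overlapped in range and cannot be ordered. CD14 and CD68, the markers most used for monocytes and macrophages, were counted at or near 0. The level of CD68 is uncertain, as 85.6% of its exonic bases are shared with other genes.

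LAPTM5 encodes a lysosomal membrane protein of blood cells that limits signalling from surface receptors. It maps to the minus strand of chromosome 1 at 30732469 to 30757774 (GRCh38, ENSG00000162511.8), and 19.3% of its exonic bases are shared with AL137857.1 on the opposite strand, which had 54 reads in all. LAPTM5 had 33.7, 35.8 and 42.8 CPM in set A and 183, 175 and 321 CPM in set B. It had 137, 159 and 131 CPM in set C and 355, 448 and 418 CPM in set D. Every set B library was above every set A library, every set D library was above every set C library, and the highest value was 13.3 times the lowest. In bulk RNA, more cells that express LAPTM5 and more LAPTM5 RNA per cell cannot be told apart, which holds for every marker here.

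By label, LAPTM5 in Kasumi-1 was 174 ± 140 CPM (SD, n = 3) in the libraries labelled siMM-mod and 302 ± 151 CPM (SD, n = 3) in the siRE-mod libraries, which is a log2 fold change of 0.80 (SE 0.77, adjusted p = 0.577, quasi-likelihood test of edgeR, Benjamini-Hochberg adjusted). In SKNO-1 it was 84.0 ± 85.4 CPM (SD, n = 3) against 253 ± 169 CPM (SD, n = 3), with a log2 fold change of 1.57 (SE 0.81, adjusted p = 0.508, same edgeR test). Both estimates were positive, and neither passed the threshold of 0.05. In Kasumi-1 the siMM-mod library of set B, with 321 CPM, stood above the siRE-mod library of set C, with 131 CPM.

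ITGAM and ITGAX encode CD11b and CD11c, alpha chains that form integrins with the beta chain ITGB2 and mediate adhesion and uptake of complement-coated particles. They are neighbours on chromosome 16, ITGAM from 31259967 to 31332892 (ENSG00000169896.18) and ITGAX from 31355134 to 31382997 (ENSG00000140678.16), both on the plus strand. ITGAM had 0.428, 0.231 and 0.596 CPM in set A, 2.58, 2.95 and 2.99 CPM in set B, 1.05, 0.844 and 0.943 CPM in set C, and 3.17, 3.42 and 3.73 CPM in set D. ITGAM thus followed the order of LAPTM5 at a far lower level, and its highest value was 16.2 times its lowest. ITGAX had 1.54, 2.15 and 2.09 CPM in set A and 1.36, 2.43 and 2.00 CPM in set B, which overlapped. In set C it had 1.74, 1.22 and 1.44 CPM and in set D 3.94, 4.20 and 3.68 CPM, so ITGAX was high in set D and differed little between the other sets.

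By label, ITGAM in Kasumi-1 was 1.48 ± 1.32 CPM (SD, n = 3) in the libraries labelled siMM-mod and 2.61 ± 1.47 CPM in those labelled siRE-mod, a log2 fold change of 0.82 (SE 0.79, adjusted p = 0.573, edgeR with Benjamini-Hochberg adjustment). In SKNO-1, ITGAM was 1.08 ± 1.30 CPM against 2.47 ± 1.26 CPM, a log2 fold change of 1.18 (SE 0.98, adjusted p = 0.672, same edgeR test). ITGAX had a log2 fold change of 0.77 in Kasumi-1 (SE 0.47, adjusted p = 0.396, same edgeR test) and of 0.72 in SKNO-1 (SE 0.48, adjusted p = 0.589, same edgeR test). None of these passed the threshold. ITGB2, the shared beta chain, had 48.6 to 140 CPM in all libraries, with 48.6 to 66.3 CPM in set C and 84.8 to 106 CPM in set A. ITGAL, the alpha chain of the lymphocyte integrin LFA-1, had 7.38 to 8.79 CPM in set D and 0.876 to 2.11 CPM elsewhere.

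FCGR1A and CD14 encode surface receptors. FCGR1A (CD64), the high-affinity receptor for IgG, maps to the plus strand of chromosome 1 at 149782671 to 149792518 (ENSG00000150337.13). It had 22.0, 23.8 and 23.4 CPM in set A, 13.1, 14.4 and 17.7 CPM in set B, 11.2, 12.4 and 8.65 CPM in set C, and 9.29, 9.28 and 10.2 CPM in set D. FCGR1A therefore ran in the other direction from LAPTM5: all 6 CD34-high libraries were above all 6 CD34-low libraries, and set A was above set B. Sets C and D overlapped. Its highest value was 2.75 times its lowest, the narrowest range of the 5 markers tested within the cell lines.

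FCGR1A was 17.8 ± 5.50 CPM (SD, n = 3) in Kasumi-1 libraries labelled siMM-mod and 9.37 ± 0.761 CPM in the siRE-mod libraries, with no overlap between the labels. This gave a log2 fold change of −0.93 (SE 0.27, adjusted p = 0.252, edgeR with Benjamini-Hochberg adjustment). It was −0.75 in SKNO-1 (SE 0.32, adjusted p = 0.467, same edgeR test), from 19.6 ± 5.71 to 11.6 ± 2.61 CPM. With DESeq2, FCGR1A passed in Kasumi-1, with a log2 fold change of −0.95 and an adjusted p of 0.032, where 8.55% of all genes passed. The same gene did not pass in SKNO-1, with an adjusted p of 0.308 by DESeq2, where 2.73% of all genes did.

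FCGR1A has near-identical copies, and 24.6% of its exonic bases also lie in other genes, among them the histone gene HIST2H2BF on the opposite strand. How the counting treated strand and reads on several genes is not stated, so its level is uncertain. The copies followed it only in part or not at all. FCGR1B had 7.02 to 7.20 CPM in set A and 1.95 to 2.95 CPM in set B, below the 3.24 to 4.49 CPM of the CD34-low libraries. FCGR1CP, a pseudogene copy, had 3.78 to 5.89 CPM in the CD34-high and 14.0 to 21.6 CPM in the CD34-low libraries, the reverse of FCGR1A. Both copies were added after their values were seen. The related low-affinity receptor FCGR2A had 8.42 to 9.68 CPM in set A, 50.5 to 54.6 CPM in set B, 54.7 to 70.7 CPM in set C and 77.4 to 89.6 CPM in set D. FCGR2B, an inhibitory receptor, had 0.0382 to 0.271 CPM in the CD34-high and 0.897 to 4.58 CPM in the CD34-low libraries, whereas FCGR3A (CD16) stayed under 0.05 CPM.

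CD14, the co-receptor for bacterial lipopolysaccharide, maps to the minus strand of chromosome 5 at 140631728 to 140633701 (ENSG00000170458.14). It had 9 reads in the 12 libraries together, with at most 3 reads in any library and 0 in 8 of them. A count of 0 allows up to 3 reads, which is 0.0195 to 0.0468 CPM at these depths, and covers counting error only. CD14 was thus not detectable above this limit in any set. TLR4, the receptor that CD14 serves, had 4.29 to 6.65 CPM in the CD34-high and 10.5 to 23.0 CPM in the CD34-low libraries. LY96 (MD-2), the partner of TLR4 that binds lipopolysaccharide, had 0.0509 to 0.130 CPM in the CD34-high libraries, 0.238 to 0.656 CPM in set C and 1.20 to 1.87 CPM in set D. TLR2, a receptor for bacterial lipoproteins, ran the other way, with 34.3 to 35.9 CPM in set A and 6.84 to 7.56 CPM in set D.

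CD68, a lysosomal glycoprotein of macrophages, maps to the plus strand of chromosome 17 at 7579491 to 7582111 (ENSG00000129226.14). It had 18 reads in total and at most 3 in any library. Of its exonic bases, 85.6% are shared with other genes, mainly with the readthrough gene AC016876.2 on the same strand, which itself had 201 reads. EIF4A1, an abundant translation factor beside CD68 with a readthrough partner of its own, had only 4.79 to 12.1 CPM. Whether reads on shared bases were dropped was not tested, so the level of CD68 is uncertain. The lysosomal membrane proteins LAMP1 and LAMP2 had 148 to 243 CPM and 133 to 349 CPM.

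VCAN encodes versican, a large proteoglycan of the extracellular matrix that classical monocytes express strongly, and maps to the plus strand of chromosome 5 at 83471618 to 83582303 (ENSG00000038427.16). VCAN had 428 reads in total, under the minimum of 600 reads for the main fits. Without a filter its log2 fold change between labels was −0.014 in Kasumi-1 (SE 0.75, adjusted p = 0.994, edgeR with Benjamini-Hochberg adjustment). In SKNO-1 it was 2.02 (SE 0.91, adjusted p = 0.580, same edgeR test). No gene passed in these fits, of 38640 and 38921 tested. VCAN had 0.114, 0.0866 and 0.149 CPM in set A, 0.125, 0.0297 and 0.166 CPM in set B, 0.903, 0.920 and 0.621 CPM in set C, and 0.289, 0.371 and 0.355 CPM in set D. All 6 CD34-low libraries were above all 6 CD34-high libraries, and set C was above set D. These are 2 to 13 reads in the CD34-high and 34 to 88 reads in the CD34-low libraries, for a gene with 14678 exonic bases. Of genes encoding proteins that link versican to hyaluronan, HAPLN1 had 0 to 0.0577 CPM in all libraries, and HAPLN3 had 0 to 0.0721 CPM in the CD34-high and 0.410 to 0.824 CPM in the CD34-low libraries.

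MNDA encodes a nuclear protein of myeloid cells from the interferon-inducible family of IFI16 and AIM2, and maps to the plus strand of chromosome 1 at 158831351 to 158849506 (ENSG00000163563.8). MNDA had 10.8, 11 and 9.12 CPM in set A, 15.2, 14.7 and 16.2 CPM in set B, 2.60, 2.68 and 1.74 CPM in set C, and 3.08, 4.68 and 3.26 CPM in set D. The CD34-high libraries were all above the CD34-low ones, and within each the RUNX1T1-lower set was above the RUNX1T1-higher set. MNDA therefore shared the first pattern with FCGR1A and the second with LAPTM5. IFI16 did not follow it, with 151 to 187 CPM in sets A and C and 43.0 to 71.5 CPM in sets B and D. AIM2 stayed under 0.05 CPM.

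MNDA was 9.34 ± 6.77 CPM (SD, n = 3) in Kasumi-1 libraries labelled siMM-mod and 2.69 ± 0.830 CPM in those labelled siRE-mod, a log2 fold change of −1.80 (SE 0.67, adjusted p = 0.258, edgeR with Benjamini-Hochberg adjustment). In SKNO-1 it was 12.3 ± 2.46 CPM against 7.33 ± 6.48 CPM, a log2 fold change of −0.74 (SE 0.64, adjusted p = 0.679, same edgeR test). Without Kasumi-1 siMM-mod replicate 3, a set C library, MNDA passed in Kasumi-1 at a log2 fold change of −2.23 (adjusted p = 0.00782, edgeR) and FCGR1A at −1.13 (adjusted p = 0.0068, edgeR), where 32.2% of all genes passed. Without SKNO-1 siRE-mod replicate 1, a set B library, MNDA passed in SKNO-1 at −1.80 (adjusted p = 0.0206, edgeR), where 19.3% of all genes passed. In both of these fits every siMM-mod library left was CD34-high and every siRE-mod library left was CD34-low. The siRNA label and the CD34 reading, by which MNDA and FCGR1A already did not overlap, cannot be told apart there.

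S100A8 and S100A9 encode the calcium-binding proteins that together form calprotectin, abundant in neutrophils and monocytes. Both lie on chromosome 1, S100A9 from 153357854 to 153361023 on the plus strand (ENSG00000163220.11) and S100A8 from 153390032 to 153391073 on the minus strand (ENSG00000143546.10). S100A8 had 0 reads in all of set A, 0.328, 0.341 and 0.586 CPM in set B, 0.0718, 0.0649 and 0.0384 CPM in set C, and 0.948, 2.21 and 0.980 CPM in set D. These are 21 to 46 reads in set B, 5 to 7 in set C and 94 to 340 in set D. The 0 reads in set A allow up to 3 reads, or 0.0407 to 0.0433 CPM. S100A9 had 0.399, 0.491 and 0.596 CPM in set A, 1.59, 1.08 and 1.90 CPM in set B, 0.0103, 0.0216 and 0.00767 CPM in set C, and 0.544, 0.801 and 0.761 CPM in set D.

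Both partners were higher in set B than in set A and in set D than in set C, but sets A and C separated them. In set A S100A9 was counted with 28 to 44 reads where S100A8 had none, and in set C S100A8 had 5 to 7 reads where S100A9 had 1 or 2. Both were under the minimum of 600 reads within each cell line, with 266 and 335 reads in Kasumi-1 and 391 and 361 reads in SKNO-1 for S100A8 and S100A9. With this minimum they were tested in fits of all 12 libraries only, where neither passed and 0 of 15863 genes passed edgeR's main fits. Without a filter or with filterByExpr, both genes were also tested within each line, and neither passed. No gene passed there: 0 of 38640 in Kasumi-1 and 0 of 38921 in SKNO-1 without a filter, and 0 of 22338 and 0 of 22656 with filterByExpr. S100A12, the third gene of the same kind in monocytes, had 6 reads in all. Other genes of the family differed between the sets. S100A10, the partner of annexin A2, had 0 to 0.0866 CPM in the CD34-high and 12.2 to 22.3 CPM in the CD34-low libraries, and S100A6 had 0.641 to 3.26 CPM against 23.6 to 75.5 CPM. S100A11 was lowest in set C, with 13.2 to 19.9 CPM, as S100A9 was.

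**Figure D1:**
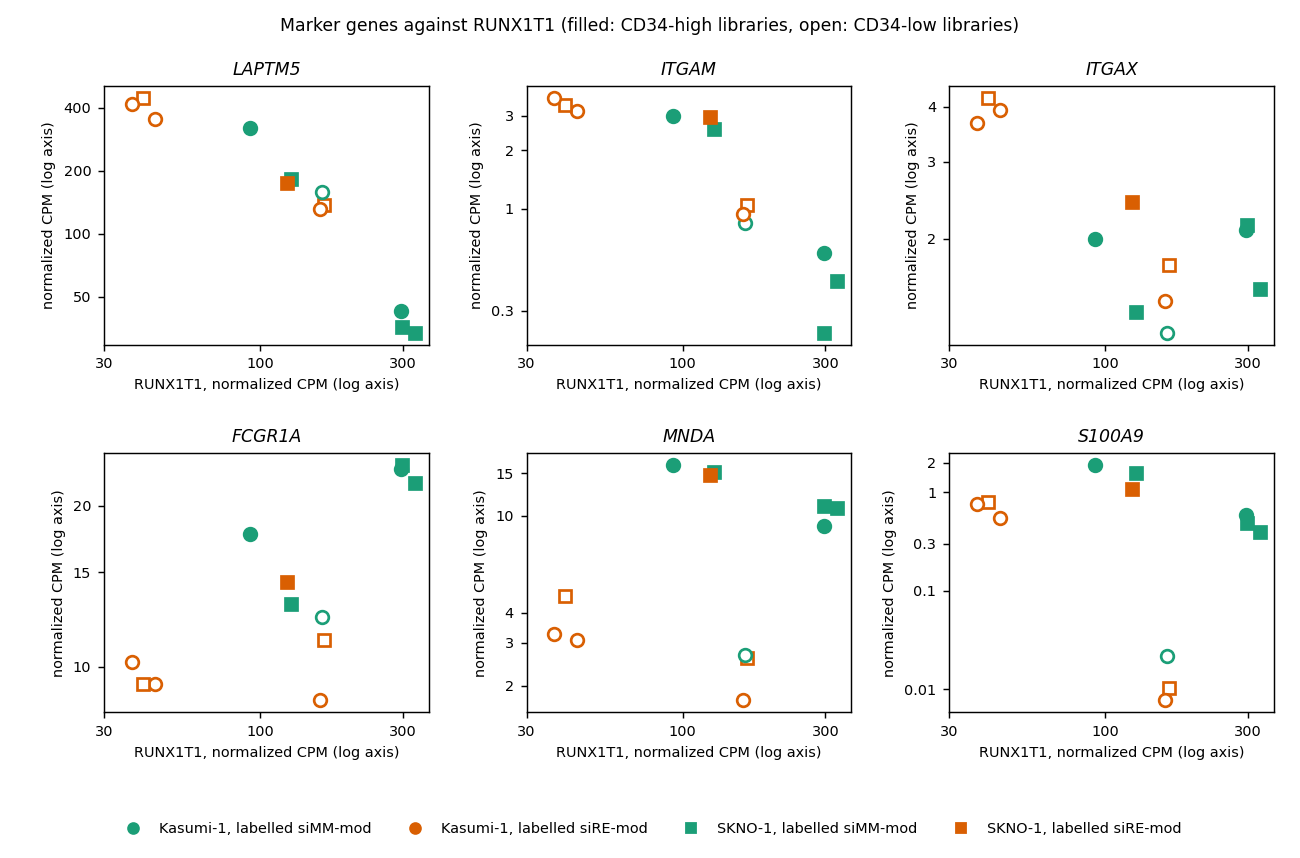
Normalized CPM of 6 markers (vertical axes, log scale) against that of RUNX1T1 (horizontal axes, log scale) in the 12 libraries. Points are single libraries, coloured by siRNA label, shaped by cell line label, filled for CD34-high and open for CD34-low. LAPTM5 ran from 448 CPM at low RUNX1T1 to 33.7 CPM at high RUNX1T1 with filled and open points in a single band, whereas for MNDA and S100A9 the filled and open points lay apart.

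Of the 10 markers, LAPTM5, ITGAM, MNDA, S100A8 and S100A9 had every set B value above every set A value, and 18% of all genes did so. FCGR1A had every set A value above every set B value, as 20.2% of all genes did. LAPTM5, ITGAM, ITGAX, MNDA, S100A8 and S100A9 had every set D value above every set C value, beside 21.7% of all genes, and VCAN the reverse, beside 21.6%. FCGR1A and MNDA were above in all CD34-high libraries, beside 15.6% of all genes, and VCAN in all CD34-low libraries, beside 17.5%. The shares are over genes with at least 600 reads, which 7 of the 10 markers had. VCAN is not among these, so its separations are not counted against a share. FCGR1A and MNDA, 2 of the 7, are too few to be read as a departure from 15.6%. S100A8 and S100A9 reached the 600 reads only through the sets in which they were high.

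Between the siRNA labels, no marker in either line had every siRE-mod value above every siMM-mod value, where 10.4% of all genes did in Kasumi-1 and 5.94% in SKNO-1. FCGR1A in Kasumi-1 was the 1 marker with every siMM-mod value above every siRE-mod value, where 11.1% of all genes did, and in SKNO-1 there was no such marker, where 6.01% did. Of the 5 markers with at least 600 reads in each line, 0 passed edgeR's test in Kasumi-1 and 0 in SKNO-1, where 0% of 13608 and 0% of 13628 genes passed. At an unadjusted p under 0.05, 2435 genes in Kasumi-1 and 1455 in SKNO-1 were counted by edgeR, and DESeq2 called 1163 and 372. The estimates of LAPTM5, ITGAM and ITGAX were positive and those of FCGR1A and MNDA negative in both lines. Among the siMM-mod libraries only Kasumi-1 replicate 3 was CD34-low, and among the siRE-mod libraries only SKNO-1 replicate 1 was CD34-high. The labels also differed in RUNX1T1. Among the siMM-mod libraries only Kasumi-1 replicate 2 and SKNO-1 replicate 3 were of a RUNX1T1-lower set. Among the siRE-mod libraries only replicate 2 of each line was of a RUNX1T1-higher set. In these estimates the siRNA label, the CD34 reading and the RUNX1T1 reading cannot be told apart. MNDA, with negative estimates, was higher in set B than in set A and in set D than in set C. The test of the difference between the lines in the effect of the siRNA label gave 0 of 15863 genes by edgeR (0%) and 127 by DESeq2, with none of the 7 markers tested among them, and 106 genes had an unadjusted p under 0.05 in edgeR.

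**Figure D2:**
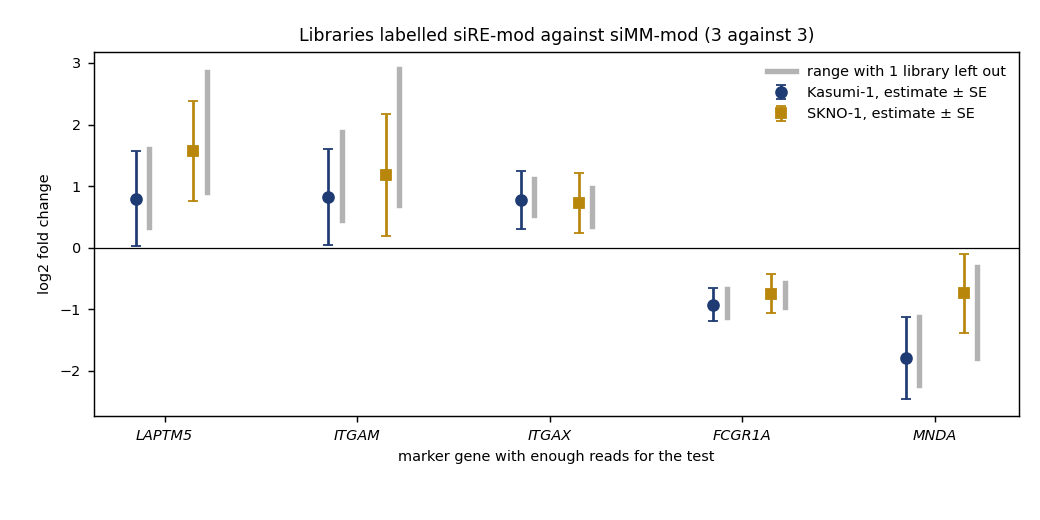
Log2 fold change (vertical axis) of libraries labelled siRE-mod against siMM-mod for the 5 markers with at least 600 reads (horizontal axis), with 3 libraries against 3 in each line. Points and bars are edgeR's estimate ± SE, and grey bars give the range with 1 library left out. LAPTM5, ITGAM and ITGAX lay above 0 and FCGR1A and MNDA below it in both lines, and none passed at an adjusted p of 0.05.

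Between SKNO-1 and Kasumi-1, with the siRNA label in the fit, 0 of the 7 markers and 0% of 15863 genes passed edgeR's test, and 2050 genes had an unadjusted p under 0.05. MNDA had a log2 fold change of 0.92, higher in SKNO-1 (SE 0.50, adjusted p = 0.408, edgeR with Benjamini-Hochberg adjustment). LAPTM5 had −0.65 (SE 0.60, adjusted p = 0.536, same edgeR test), ITGAM −0.26, ITGAX −0.09, FCGR1A 0.23, S100A8 −0.22 and S100A9 0.26. DESeq2 called 272 genes, which is 1.71%, and none of the markers, with no adjusted p given for S100A8 and S100A9.

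The likeness of patterns was measured as the root mean square difference of centred log2 CPM over the 12 libraries, so that 0 is the same pattern. Among the markers, LAPTM5 and ITGAM were closest at 0.483, and FCGR1A and S100A8 farthest at 2.65. S100A8 and S100A9 stood at 2.35, farther apart than S100A8 and LAPTM5 at 1.13 or S100A9 and MNDA at 1.40. Among all genes, the nearest to LAPTM5 were SH3TC1 at 0.245, PRKCD at 0.251 and RPS6KA1 at 0.274. The nearest to ITGAM were RASSF5 at 0.356, AC244502.3 and ADGRE2, and to ITGAX BTBD6 at 0.253, ZNF367 and HAUS8. FCGR1A was nearest to RBM3 at 0.124, PBX2 and SSBP1, and MNDA to SLCO4C1 at 0.252, ASAP1 and CEP135. S100A8 was nearest to VSIR at 0.508, AHNAK and CIB3, and S100A9 to SLA at 0.453, LCP1 and BEGAIN. The measure is not scaled and grows with a marker's own spread, so the distances do not rank the markers. That spread, as root mean square about the mean, was 2.29 for S100A8, 2.08 for S100A9, 0.579 for ITGAX and 0.516 for FCGR1A. Distances of S100A8 and S100A9 also rest in part on libraries with few or no reads. All these likenesses are descriptions over libraries that share their sets.

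Of 24 other genes of monocytes and macrophages, 12 had at least 600 reads, and none passed edgeR's test in either line. Their median log2 fold change between the labels was 0.473 over 12 genes in Kasumi-1 and 1.33 over 11 genes in SKNO-1, where the median over all genes was 0.0203 and 0.0274. TYROBP (DAP12), the signalling adaptor of many myeloid receptors, was higher in each next set, with 0.0678 to 0.115 CPM in set A, 2.54 to 6.00 in set B, 11.9 to 21.9 in set C and 57.1 to 69.0 in set D. MRC1 (CD206), the mannose receptor of macrophages, had 0 to 0.0891 CPM in the CD34-high and 6.46 to 10.2 CPM in the CD34-low libraries. CD86, a co-stimulatory ligand, had 0.0156 to 0.404 against 1.16 to 3.22 CPM. In the reverse direction, CD93 had 27.6 to 41.7 CPM in the CD34-high and 0.454 to 2.49 CPM in the CD34-low libraries, and CSF1R, the receptor for the macrophage growth factor, 8.05 to 24.9 against 0.615 to 1.54 CPM. MSR1 had 0 reads, and CD163, MARCO, FCN1, CD300E and SIGLEC1 had 2 to 27 reads in all, so CD14 was not alone in being near 0. Other genes of the list were expressed in every library, among them CTSS at 27.4 to 88.6 CPM, AIF1 at 70.8 to 215 CPM and ANPEP at 54.7 to 207 CPM. CSF1R, CTSS, AIF1 and ANPEP were named after their values were seen.

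Of 23 relatives and partners of the markers, 22 were found by symbol and 15 had at least 600 reads, with none called. Their median log2 fold change was 0.255 over 14 genes in Kasumi-1 and 0.974 over 14 in SKNO-1. Of 10 transcription factors of monocytes, 6 had at least 600 reads, with none called, and the medians were 0.314 and 0.409. IRF8, which directs progenitors to the monocyte path, had 4.16 to 15.4 CPM in the CD34-high libraries and 0 reads in all 6 CD34-low libraries. EGR1 had 4.61 to 9.01 CPM in the CD34-high libraries, 123 to 290 CPM in set C and 25.5 to 37.2 CPM in set D. CEBPB and NR4A1 had 2.19 to 19.1 and 0.765 to 3.92 CPM over all libraries. SPI1 (PU.1) varied less, from 75.7 to 196 CPM.

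**Figure D3:**
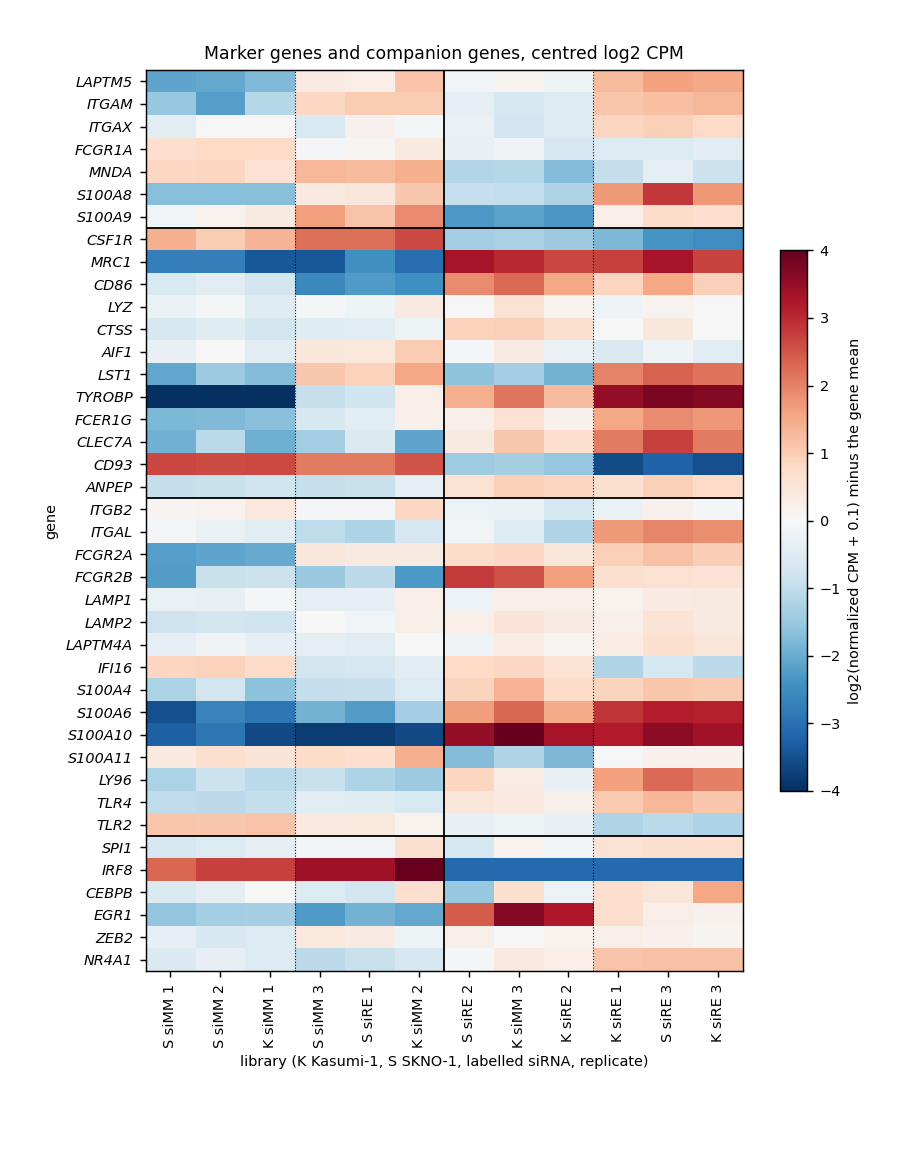
Centred log2 of normalized CPM plus 0.1 for 7 markers and 33 companion genes with at least 600 reads (vertical axis, in 4 blocks: markers, other monocyte and macrophage genes, relatives and partners, transcription factors) in the 12 libraries (horizontal axis, sets A to D). Red is above and blue below the mean of the gene, and colours end at 4 on the log2 scale. The markers do not form 1 block. ITGAM is red in sets B and D, and MNDA is red in the CD34-high libraries. LAPTM5 is red in set D, blue in set A and nearer its mean in sets B and C.

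The 12 libraries had 60559466 to 147990959 reads on genes, with a median of 89160101, and no pair of libraries agreed within sampling noise. All 7 genes of myeloid blasts had at least 600 reads, and MPO, an enzyme of myeloid granules, had 1780 to 22627 CPM. Genes of granulocytes and of eosinophils and basophils also differed between the sets. The summed level of 8 granulocyte genes was 2034 to 7849 CPM in the CD34-high and 104 to 233 CPM in the CD34-low libraries, of which 4, among them LTF and MMP8, were near 0. The sum of 8 eosinophil and basophil genes was 1.64 to 203 against 61.3 to 378 CPM. One of them, PRG2, had 0.217 to 0.271 CPM in set A and 156 to 193 CPM in set B. Of the 6 with at least 600 reads, 5 were higher in every CD34-low than in every CD34-high library, beside 17.5% of all genes. ITGA2B, of platelets, had 1.47 to 2.37 against 53.1 to 90.6 CPM, and EPCAM, of epithelia, 77.3 to 104 CPM against 0 to 0.0108 CPM, whereas PF4, MS4A1 and COL1A2 had 0 reads in every library. The summed levels of 4 B cell, 4 T and NK cell and 4 erythroid genes reached 14.4, 0.445 and 6.75 CPM. The part of these cell types in the marker levels was not tested.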

How the data were processed

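RNA-seq libraries were grouped by cell line, siRNA and replicate as the sample labels give them. The raw counts per gene are deposited values, made by the authors with trimming (Trim Galore 0.6.5), alignment to GRCh38 with STAR 2.7.10a and counting over exons, where the file headers give R 3.5.1 with Rsubread 1.32.4. How strand and reads on several genes were handled is not given in the sources used here. CPM and FPKM in the same tables are these counts rescaled and were not used. The in vivo counts, also deposited by the authors, gave no reads on the markers.

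Tests used edgeR 4.0.16 (R 4.3.3). The study's methods keep genes with a total of 600 reads or more and do not say over which libraries. Here a gene entered a main fit when its reads, summed over the libraries compared, reached 600, which leaves S100A8 and S100A9 out of the main fits within a line. TMM factors were computed and libraries labelled siRE-mod were compared with those labelled siMM-mod in each line by the quasi-likelihood test, with Benjamini-Hochberg adjustment over all genes and a threshold of 0.05. The same test was used for the difference between lines in that effect and for SKNO-1 against Kasumi-1. Normalized CPM use TMM factors over the 12 libraries, and the likeness of patterns uses log2 CPM with a prior count of 2. The procedure was tested on simulated counts with a dispersion of 0.02, and 200 of 200 changed genes among 13512 were recovered with 9 false calls for Kasumi-1. The real counts were far more dispersed (common dispersion 0.197 for Kasumi-1, 0.246 for SKNO-1), and the simulation does not give the power of the real comparisons. Alternatives were DESeq2 1.42.0, its size factors in edgeR, no filter, filterByExpr, a replicate block, 1 fit of all 12 libraries, and every library left out in turn.

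The named genes were the 10 markers, CD34 and RUNX1T1, the 3 genes most like each marker with at least 600 reads, and up to 4 genes of each companion list with the widest range, the genes with at least 600 reads being eligible. Other genes of these lists and of the cell type lists were named for their role or, where the text says so, after their values were seen. The markers, the reading by CD34 and RUNX1T1 and all lists were chosen with earlier results of these data known. One gene of these lists is not reported here. Promoter windows came from RefSeq (GRCh38.p14). Python 3.11.15 with pandas 2.3.3, numpy 2.4.6 and matplotlib 3.10.9 was used for tables and figures.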

Additional observations from a re-analysis of the deposited data

How the results depend on the processing

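The count of genes called moved from 0 with DESeq2, to 1163 in Kasumi-1 and 372 in SKNO-1, to 127 where the siRNA effects of both lines were compared and to 272 for SKNO-1 against Kasumi-1. With 1 library left out, the counts ranged from 0 to 4250 in Kasumi-1, from 0 to 2535 in SKNO-1 and from 0 to 70 for SKNO-1 against Kasumi-1, where the 70 came without SKNO-1 siRE-mod replicate 3 and included no marker. The 4250 came without Kasumi-1 siMM-mod replicate 3 and the 2535 without SKNO-1 siRE-mod replicate 1. In these fits the siRNA labels coincide with the CD34 reading. The log2 fold changes between siRNA labels of LAPTM5, ITGAM, ITGAX, FCGR1A and MNDA kept their direction under every alternative that gave a value. With 1 library left out, they ranged in Kasumi-1 from 0.33 to 1.61 for LAPTM5, from 0.44 to 1.87 for ITGAM, from 0.53 to 1.12 for ITGAX, from −1.13 to −0.68 for FCGR1A and from −2.23 to −1.13 for MNDA. In SKNO-1 the ranges were 0.90 to 2.86, 0.69 to 2.91, 0.35 to 0.97, −0.96 to −0.57 and −1.80 to −0.32 in the same order, and the 0.35 of ITGAX came without siRE-mod replicate 3. The ITGAM range in SKNO-1 rests on 5 fits, since ITGAM falls under 600 reads in the other. In SKNO-1 against Kasumi-1, values near 0 changed sign. With 1 library left out, ITGAM ranged from −0.93 to 0.21, ITGAX from −0.27 to 0.022, S100A8 from −0.98 to 0.84 and S100A9 from −0.044 to 0.50, while LAPTM5 ranged from −1.12 to −0.25 and MNDA from 0.42 to 1.28. The cause of these changes was not tested.

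Deviations of same-numbered libraries from the mean of their label correlated at −0.272 to −0.0132 in Kasumi-1 and −0.246 to −0.0213 in SKNO-1. Each label holds libraries of different sets, so these values cannot show whether same-numbered libraries were paired. With the replicate block, 0 genes were called in all 4 comparisons, and in SKNO-1 against Kasumi-1 the log2 fold change became −0.055 in place of 0.26 for S100A9, −1.70 in place of −0.22 for S100A8, −0.62 in place of −0.26 for ITGAM and −0.93 in place of −0.65 for LAPTM5. Low counts limit what can be read for CD14 and CD68, at 0 to 3 reads a library, and for VCAN, S100A8 and S100A9, whose lowest libraries had 2, 0 and 1 reads. For CD68, whether reads on bases shared with other genes were dropped was not tested.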
